A study of Mus musculus with 4 samples.

Results

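The 48 genes described here are the matrix metalloproteinases (Mmp, 22 genes), the ADAMTS proteases (Adamts, 18), the ADAMTS-like proteins (Adamtsl, 4) and the tissue inhibitors of metalloproteinases (Timp, 4), chosen by symbol among the 32285 genes counted in a single-cell RNA sequencing study of mouse lymph node stroma. Live CD45-negative CD31-negative cells were sorted from lymph nodes (inguinal, axillary and brachial) of female C57BL/6 mice aged 12 weeks, in 2 batches with 1 control and 1 Notch2 cKO library in each. The mice of control 1 carried Ccl19-Cre and the R26R-EYFP reporter, and those of Notch2 cKO 1 carried both together with Notch2 fl/fl alleles, with 6 mice pooled per library and groups that were not littermates. By its genotype label, control 2 came from mice with Notch2 fl/fl alleles and no Cre, although its title names Ccl19-Cre. Notch2 cKO 2 came from littermates with both Ccl19-Cre and Notch2 fl/fl, with 3 mice pooled for each library of this pair. Cre recombinase was thus present in both libraries of batch 1 and, by the genotype labels, in Notch2 cKO 2 alone in batch 2, where the effects of Cre and of the deletion cannot be told apart. The Ccl19 promoter that drives Cre is active in lymph node reticular fibroblasts, so cells outside that lineage need not have lost Notch2. The question put by the series title is how Notch2 takes part in the specialization of fibroblasts around T cells, and the comparisons below ask how these genes differ between stromal cell types and between genotypes.

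Fibroblastic reticular cells build the collagen and microfibril scaffold on which lymphocytes move, and they can take that scaffold down again. Metalloproteinases of the Mmp family cut collagens, gelatin, proteoglycans and each other's pro-forms, either secreted or held at the cell membrane. ADAMTS enzymes bind the matrix and fall into groups that cut hyalectan proteoglycans such as versican and aggrecan, trim procollagen, cut cartilage oligomeric matrix protein, act around fibrillin microfibrils or cut von Willebrand factor. ADAMTS-like proteins share the binding domains but have no protease domain, and Timp proteins block the active site of the metalloproteinases.

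The libraries held 9891 (control 1), 8491 (Notch2 cKO 1), 18482 (control 2) and 13452 (Notch2 cKO 2) barcodes with 21533049, 25644596, 119002408 and 108144616 unique molecular identifiers (UMIs, each a counted transcript 3′ end). Cells were assigned to classes by marker gates, and fibroblast-like cells made up 83.5% to 98.2% of the cells kept, with medians of 2128.5 to 2969 UMIs in batch 1 and 6672 to 8246 in batch 2. The 7 general fibroblast markers reached at least 1 CPM (a gene's share of the summed UMIs, scaled to a fixed total) in all 4 libraries, among them Dcn at 5992 to 6870 CPM. T-zone reticular-like cells were gated by Ccl21a alone. For this class only, cells under the threshold on general fibroblast genes were kept where Ccl21a was the leading gate. All 4 markers the gate did not use (Bst1, Grem1, Il7, Ccl19) were higher in T-zone reticular-like cells than in the other fibroblast-like classes, by 2.75 to 3.27 times. Marginal reticular-like cells (gated by Tnfsf11, Cxcl13 and Hamp2) and interferon-chemokine reticular-like cells (Cxcl9, Cxcl10) were likewise higher in the 1 and 2 list markers left unused. All 7 adventitial and all 4 medullary-type markers were used by their gates, so those names rest on the gates. Each library is 1 pool of mice, so p-values of the genotype fits measure the spread between 4 pools, with 1 residual degree of freedom once batch is in the model. The quasi-likelihood test moderates each gene's spread with that of all genes tested. These p-values therefore rest largely on spread shared over genes and not on a gene's own 4 values alone. Tests between classes, and of genotype by class, use several class sums from each pool with the library as a block. Their p-values rest on the spread of those sums and on spread shared over genes, and classes of the same pool are not separate animals. In the test of genotype by class against adventitial-like cells, a gene's own spread between pools counted for little. Between 21 and 57 barcodes were shared by any pair of libraries. The targeted gene, Notch2, gave 38.8 and 58.4 CPM (controls) and 19.0 and 39.3 CPM (Notch2 cKO) over all fibroblasts (log2 fold change -0.85, adjusted p = 0.0881), and in T-zone reticular-like cells it was lower (log2 fold change -1.09, adjusted p = 0.00341). The labels do not give the floxed exons, and 3′-end counts can lie outside them, so these levels do not check the deletion.

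Of the 48 genes, 19 had a mean of at least 20 CPM in all fibroblast-like cells and 32 reached that level in some gated class. Throughout, pairs of values give batch 1 first, CPM is taken over the summed UMIs of a class, and a lower CPM in a class cannot separate fewer cells of a subtype from less RNA per cell. The remaining 16 genes stayed under 20 CPM in every class, with Adamts19 (18.2 CPM in adventitial-like cells), Mmp27 (18.0 CPM in medullary-type cells), Mmp28, Adamts8 and Adamts18 highest, and 3 of them (Mmp7, Mmp13 and Mmp1b) had 0 UMIs in fibroblast-like cells of all 4 libraries. The plot of levels by class and library shows the broadly present genes (Timp2, Timp3, Mmp14, Mmp23, Adamts1, Adamts5) as bright rows and the class-restricted ones as blocks.

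**Figure D1:**
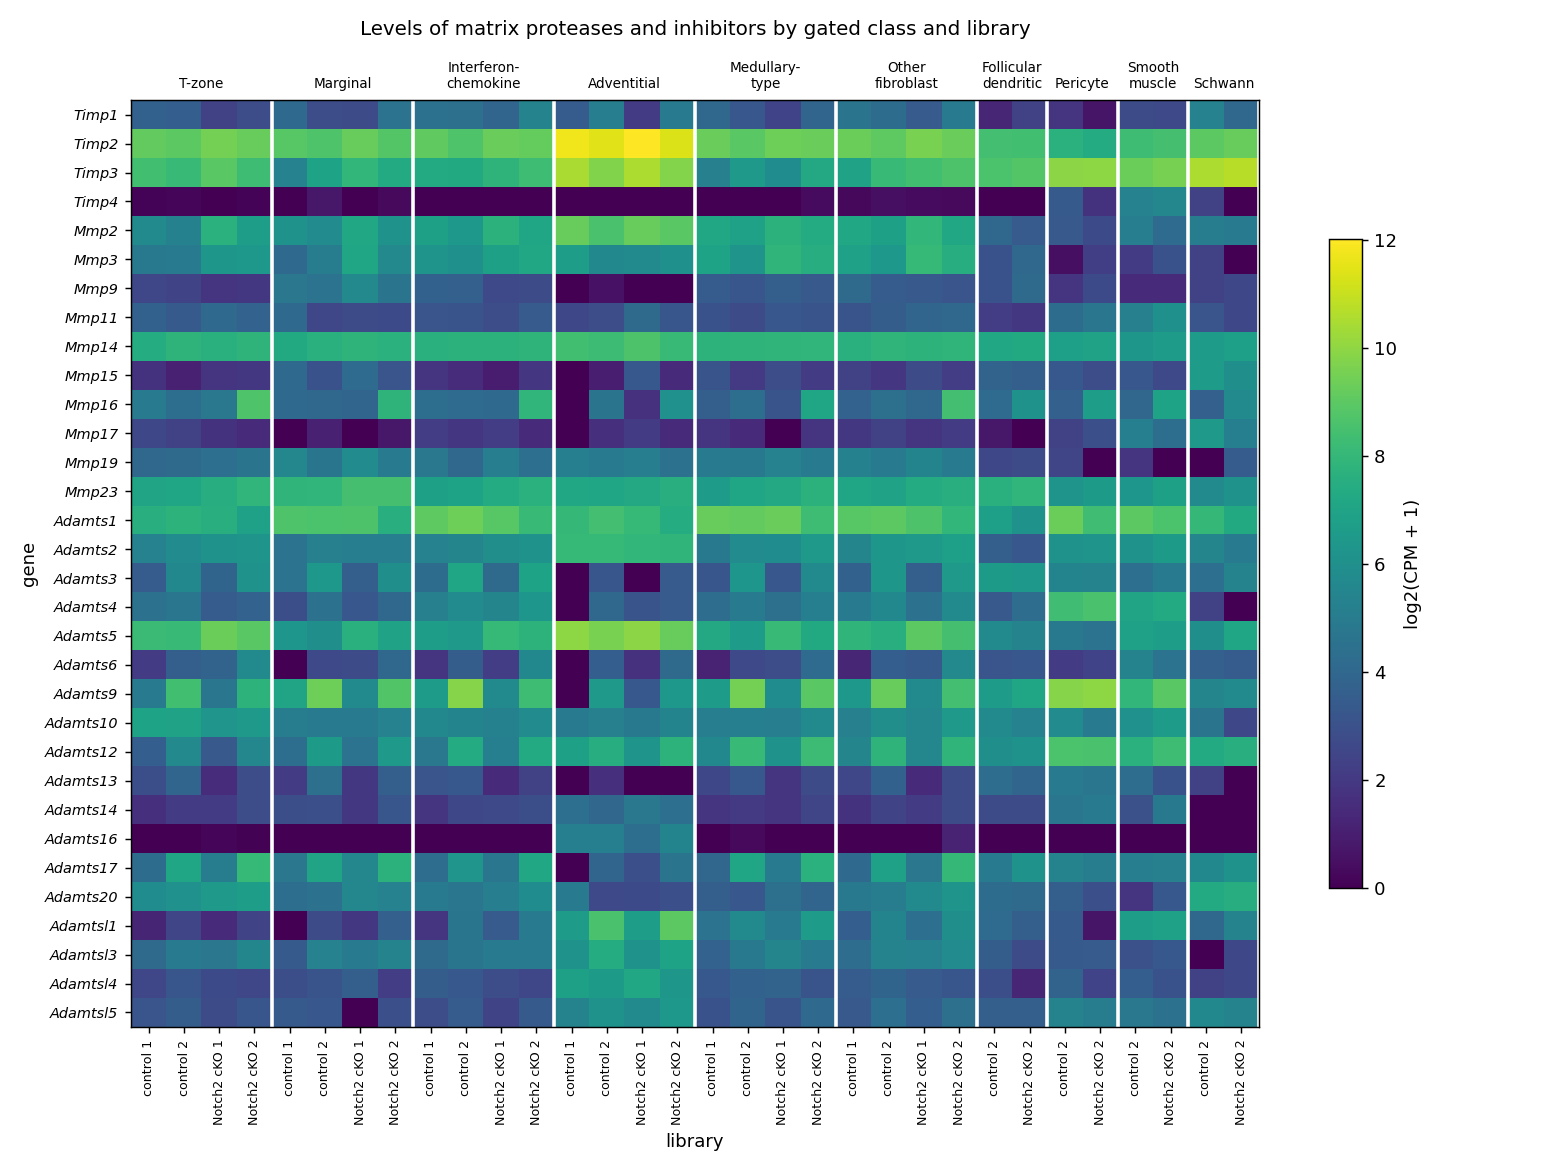
Levels of the 32 genes with a mean of at least 20 CPM in some class, as log2(CPM + 1), by gated class (top) and library (bottom); follicular dendritic-like, pericyte-like, smooth muscle-like and Schwann-like cells are shown for batch 2 only, where each library held at least 20 of them. Timp2, Timp3 and Adamts5 are brightest in adventitial-like cells among the fibroblast-like classes, and Adamts3, Adamts9, Adamts12 and Adamts17 are brighter in the batch 2 libraries of the same class.

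A cluster of 9 Mmp genes on chromosome 9 (chr9:7272514-7699585, mm10, 427 kb) was all but silent apart from Mmp3 and, at a lower level, Mmp27. Mmp3, a stromelysin which cuts proteoglycans and activates other pro-metalloproteinases, gave 21240 UMIs in fibroblast-like cells over the 4 libraries and Mmp27 gave 2285. The other 7 genes (Mmp1b, Mmp7, Mmp8, Mmp10, Mmp12, Mmp13 and Mmp20) gave 0 to 20 UMIs each. RefSeq promoter sequences (GRCm38.p6) were at hand for 34 of the 48 genes, in 37 windows. In the 250 bases before the start, the AP-1 letters TGANTCA (searched on both strands) occurred in 7 of these genes, all of them in this cluster, against 6.75% of all 32851 promoters. The windows of Mmp3, Mmp27 and Mmp13 are shown because they pair the expressed with the silent genes, 5′ to 3′ on the gene's strand, with matches to TGANTCA and to the TATA-box letters TATAAA in capitals.
Mmp3, chr9:7445572-7445821, + strand: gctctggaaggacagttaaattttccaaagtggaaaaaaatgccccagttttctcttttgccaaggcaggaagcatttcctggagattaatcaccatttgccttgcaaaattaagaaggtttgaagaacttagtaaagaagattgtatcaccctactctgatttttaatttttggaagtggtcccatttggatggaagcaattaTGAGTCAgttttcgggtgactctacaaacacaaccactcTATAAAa
Mmp27, chr9:7571146-7571395, + strand: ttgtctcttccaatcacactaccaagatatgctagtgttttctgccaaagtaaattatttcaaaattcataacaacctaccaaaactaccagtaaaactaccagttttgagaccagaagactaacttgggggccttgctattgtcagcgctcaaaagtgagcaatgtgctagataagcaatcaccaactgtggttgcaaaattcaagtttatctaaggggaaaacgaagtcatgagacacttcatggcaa
Mmp13, chr9:7272264-7272513, + strand: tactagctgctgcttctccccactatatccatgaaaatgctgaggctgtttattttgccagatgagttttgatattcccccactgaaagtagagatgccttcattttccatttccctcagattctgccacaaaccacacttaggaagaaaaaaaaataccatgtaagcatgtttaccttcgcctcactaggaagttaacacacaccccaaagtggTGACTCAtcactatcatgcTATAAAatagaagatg
The window of Mmp3, which was well detected, and that of Mmp13, which was at 0, each held 1 AP-1 match and 1 TATA-box match, whereas that of Mmp27 held neither. The TATAAA letters began 7 bases before the annotated start in Mmp3 and 16 bases before it in Mmp13, and 12.4% of all promoters held them. The letters alone did not separate detected from undetected genes of the cluster.

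Among the fibroblast-like classes, Timp2 and Timp3 were highest in adventitial-like cells and Timp1 was low in T-zone reticular-like cells. Timp2, which blocks metalloproteinases and also takes part in activating the Mmp2 pro-form, stood in adventitial-like cells at 3439 and 2850.5 CPM in the controls and 4119.9 and 2674 CPM in the Notch2 cKO libraries. In the other 5 fibroblast-like classes it lay at 410.1 to 771 CPM, with no overlap with the adventitial values (each class against the mean of the other 5, edgeR quasi-likelihood test with the library as a block, log2 difference 2.47, SE 0.06, adjusted p = 2.02e-21). Timp3, the inhibitor that binds the matrix and blocks ADAMTS enzymes, stood in adventitial-like cells at 1439 and 843 CPM in the controls and 1469 and 880.1 CPM in the Notch2 cKO libraries (log2 difference 2.57, SE 0.20, adjusted p = 4.83e-11). In medullary-type cells Timp3 was lower than in the other classes, at 36.6 to 149.7 CPM (log2 difference -1.86, SE 0.25, adjusted p = 4.72e-06), and in T-zone reticular-like cells it was above them (log2 difference 0.63, SE 0.20, adjusted p = 0.016). Timp1 was lower in T-zone (log2 difference -0.96, SE 0.22, adjusted p = 0.00133) and higher in interferon-chemokine reticular-like cells (log2 difference 0.84). Timp4 was nearly absent from fibroblast-like cells, at 0.081 to 0.267 CPM, and was found in smooth muscle-like cells of batch 2 at 39.5 CPM in control 2 and 45.8 CPM in Notch2 cKO 2 (exact 95% Poisson intervals 28.9 to 52.6 and 29.9 to 67).

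Adventitial-like cells, which lie around vessels and in the capsule, had members of every family among their higher genes, as the plot of class differences shows. Of 36 members tested, 14 were higher and 12 lower in adventitial-like cells (background over all 14114 genes 19.5% and 22.7%). Besides Timp2 and Timp3, the higher genes were the gelatinase Mmp2, its membrane-bound activator Mmp14, the proteoglycan-cutting Adamts5, Adamts2 and Adamts14 of the 3 procollagen N-proteinases, and Adamts12, Adamts16, Adamts19 and all 4 Adamtsl genes. Mmp2 stood there at 591 and 378 CPM in the controls and 595 and 492 CPM in the Notch2 cKO libraries, above its levels of 38.1 to 248 CPM in the other fibroblast-like classes (log2 difference 2.07, SE 0.14, adjusted p = 5.44e-12). Adamts5 stood at 1005 and 769.5 CPM in the controls and 983 and 599 CPM in the Notch2 cKO libraries (log2 difference 2.05, SE 0.13, adjusted p = 1.90e-12). Adamts16 was found almost nowhere else, at 19 to 41.5 CPM in adventitial-like cells and under 2 CPM in each library of the other fibroblast-like classes. Over all fibroblast-like cells Adamts16 and Adamts19 had means of only 0.584 and 0.526 CPM. Both are among the 14 higher genes but may have passed the filter on low counts through adventitial-like cells alone. Their calls are therefore no separate support for a difference in adventitial-like cells. Adamts2 ranged over 228 to 263 CPM and Adamts14 over 14.5 to 26.8 CPM in this class. Mmp14, at 282 to 403 CPM, was higher by a smaller margin (log2 difference 0.58, SE 0.08, adjusted p = 1.27e-06), and it lay at 156 to 235 CPM in the other fibroblast-like classes. Among the proteins without a protease domain, Adamtsl3 and Adamtsl5 ranged over 68.1 to 170.1 CPM and 40.4 to 83 CPM. Adamtsl1 ranged over 95.9 to 502 CPM and Adamtsl4 over 79.7 to 147 CPM in adventitial-like cells, against 0 to 95.1 CPM and 3.47 to 13.5 CPM in the other fibroblast-like classes. The lower genes included Mmp9, the other gelatinase, at 0 to 0.519 CPM, and Adamts13, the remaining procollagen N-proteinase Adamts3, Adamts9 and Adamts17 (log2 differences -3.00, -3.34, -2.62 and -3.04). The class was small, with 94 to 304 cells per library.

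**Figure D2:**
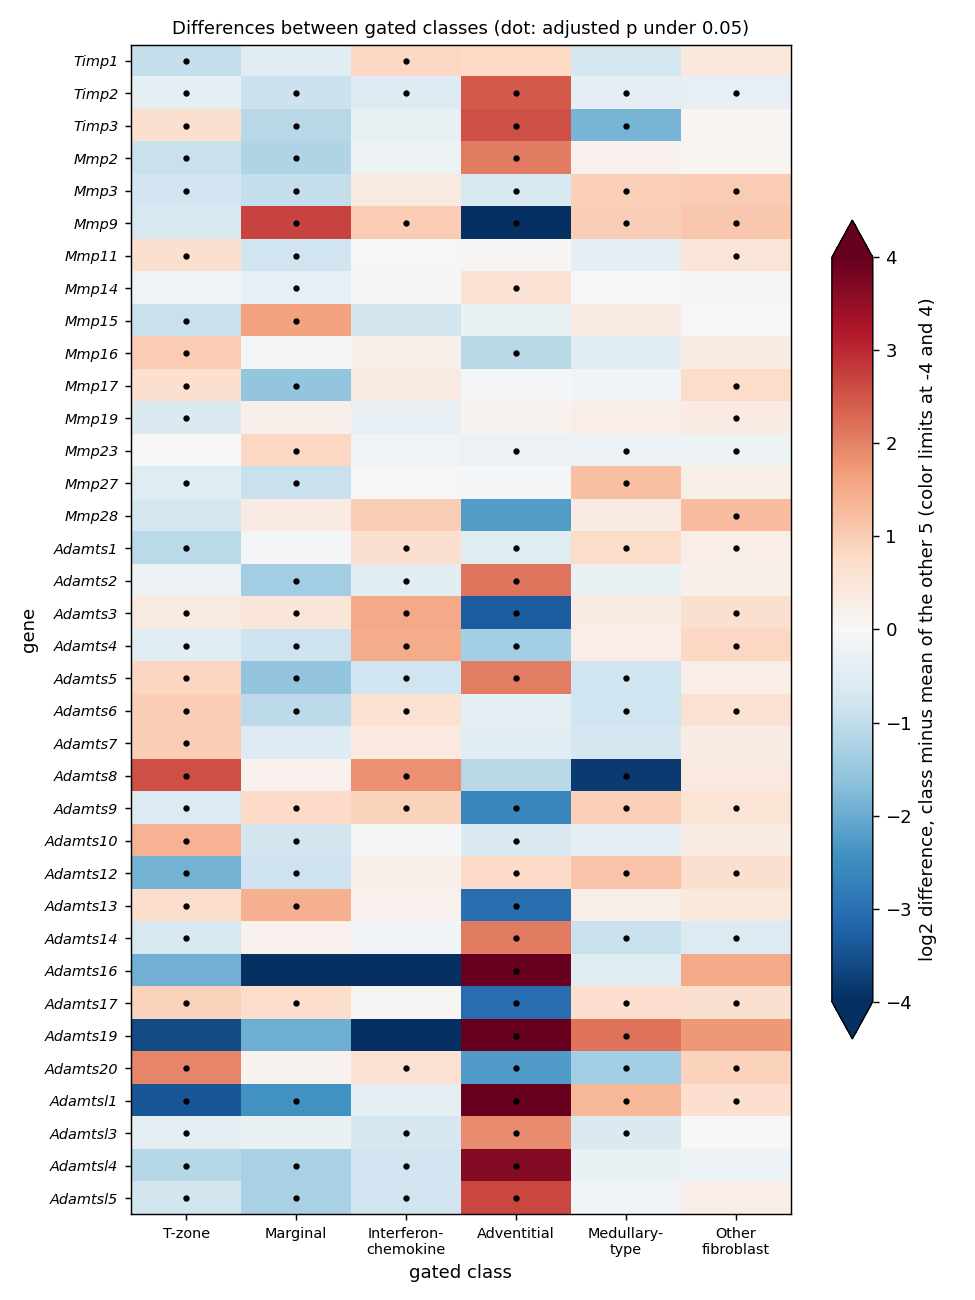
Log2 difference of each class from the mean of the other 5 fibroblast-like classes (color, limits at -4 and 4) for the 36 members tested, with a dot where the adjusted p lay under 0.05. The adventitial column holds 26 dots and the T-zone column 29. Among members with a dot in the T-zone column, Adamts8, Adamts20 and Adamts10 are most raised and Adamtsl1 and Adamts12 most lowered.

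T-zone reticular-like cells, the Ccl21a-rich cells of the T cell area, were higher in 9 and lower in 5 of the 14 Adamts genes past the test, and higher in 3 and lower in 5 of the 8 Mmp genes past it. In the class test 13 members were higher and 16 lower there (background 21.5% and 14.8%). Adamts8 and Adamts20, both proteoglycan-cutting enzymes, stood at 7.57 to 17.2 CPM and 55.5 to 106 CPM (log2 differences 2.57 and 1.95). Adamts10, which acts around fibrillin microfibrils, stood at 123 and 121 CPM in the controls and 74.7 and 90.5 CPM in the Notch2 cKO libraries (log2 difference 1.40, SE 0.11, adjusted p = 1.46e-10). Adamts5, Adamts6, Adamts7, Adamts13, Adamts17, Adamts3, Mmp11, Mmp16, Mmp17 and Timp3 were the other higher genes. The lower genes included Adamtsl1 (log2 difference -3.42), Adamts12, Adamts1, Adamts14, Adamts9 and Adamts4 (log2 differences -1.90, -1.08, -0.63, -0.55 and -0.44) and Mmp2, Mmp3, Mmp15, Mmp19 and Mmp27 (log2 differences -0.89, -0.75, -0.89, -0.59 and -0.50).

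In the remaining fibroblast-like classes some of the higher members were shared with another class. Marginal reticular-like cells, which line the node beneath its capsule, were higher in 7 and lower in 17 members (background 11.1% and 10.5%). They led in Mmp9 at 25.9 and 22.7 CPM in the controls and 48.6 and 23.9 CPM in the Notch2 cKO libraries (log2 difference 2.70, SE 0.22, adjusted p = 1.63e-09), and were also above their mean in the membrane-type Mmp15 and in Mmp23, at 7.18 to 17.1 CPM and 230.1 to 351 CPM. Interferon-chemokine reticular-like cells were higher in 9 and lower in 6 members (background 9.80% and 4.88%), with Adamts8, Adamts3 and the proteoglycan-cutting Adamts4 showing the greatest differences (log2 differences 1.81, 1.52 and 1.50). Medullary-type cells were higher in 9 and lower in 9 members (background 13.8% and 9.79%). They stood above the mean of the other classes in Mmp27 (5.78 to 27.7 CPM), Mmp3 (74 to 230.2 CPM), Adamts12 and Adamts1 (log2 differences 1.21, 0.97, 1.13 and 0.74), whereas Adamts8 was at 0 to 0.398 CPM. Adamts1, a protease that cuts versican and aggrecan, stood there at 596 and 565 CPM in the controls and 605 and 311 CPM in the Notch2 cKO libraries, all above the 117 to 218 CPM of T-zone cells. Other fibroblast-like cells, past no class gate, were higher in 15 and lower in 3 members (background 11.5% and 2.08%), among the higher ones Mmp3 at 82.9 to 261 CPM (log2 difference 1.02), Mmp19 at 29.1 to 42.2 CPM and the stromelysin-like Mmp11 at 7.63 to 15.6 CPM. Adamts8 had a higher mean in T-zone than in interferon-chemokine cells, Mmp3 in other fibroblast-like than in medullary-type cells, Mmp19 in marginal and Mmp11 in T-zone than in other fibroblast-like cells. The number called fell from 15 to 9 in interferon-chemokine cells without control 2 and from 18 to 10 in other fibroblast-like cells without Notch2 cKO 2, and no difference past the test changed sign with any library left out.

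Outside the fibroblasts, pericyte-like, smooth muscle-like, Schwann-like and follicular dendritic-like cells reached 20 cells per library in batch 2 only, with 1 library per group and so no test. Pericytes, the contractile cells around small vessels, had Adamts4 at 319 CPM in control 2 and 372 CPM in Notch2 cKO 2 (exact 95% Poisson intervals 297 to 343 and 343 to 403). In T-zone reticular-like cells of the same libraries Adamts4 stood at 25.4 and 12.8 CPM. Adamts9 and Timp3 in pericyte-like cells stood at 917 and 1008 CPM and at 957 and 986 CPM, in the order control 2 and Notch2 cKO 2. Schwann-like cells, the glia of peripheral nerve, had Timp3 at 1463 and 1684 CPM, Adamts20 at 162 and 179 CPM, and Mmp15 at 94.6 and 61.4 CPM. The membrane-anchored Mmp17 stood there at 86.7 CPM in control 2 and 35.8 CPM in Notch2 cKO 2 (exact 95% Poisson intervals 54.4 to 131 and 14.4 to 73.8). These intervals overlapped, with 75 and 60 Schwann-like cells counted. All such intervals cover counting error only.

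Summed over all fibroblast-like cells, the microfibril-associated protease Adamts6 and the stromelysin Mmp3 were higher in Notch2 cKO libraries. Such a sum does not show a rise in each class, and 0 of 23 members tested were called in adventitial-like cells. Adamts6 (chr13:104287835-104496695) stood at 2.59 and 10.3 CPM in the controls and 10.7 and 45.4 CPM in the Notch2 cKO libraries (edgeR quasi-likelihood test, batch in the model, log2 fold change 2.04, SE 0.21, adjusted p = 0.008). Within each batch the Notch2 cKO library was above its control, by log2 differences of 2.03 in batch 1 and 2.06 in batch 2, although Notch2 cKO 1 and control 2 lay close together. Mmp3 (chr9:7445822-7455975) stood at 62.3 and 55.3 CPM in the controls and 142 and 109 CPM in the Notch2 cKO libraries, and the groups did not overlap (log2 fold change 1.03, SE 0.19, adjusted p = 0.0493). Of 38 members tested 2 were called (background 1.73% of 17727 genes), both higher (background 1.12%) and 0 were lower (background 0.615%), while 10 and 7 members had an unadjusted p under 0.05 in those directions. The remaining 10 members did not pass the filter on low counts. The members' median log2 fold change was 0.13, and that of all genes tested 0.02. Adamts5 stood at 259.8 and 210.5 CPM in the controls and 566 and 395 CPM in the Notch2 cKO libraries without passing the test (adjusted p = 0.119), and Adamts13, Adamts17 and Adamts20 had adjusted p of 0.0541, 0.0891 and 0.104. Without the batch term, or with any 1 library left out (fits that have no batch term), 0 members passed. Over all genes 0 passed in these fits too, except 11 higher and 1 lower without Notch2 cKO 2. With 1 library left out the fold change of Adamts6 ranged from 0.75 (without Notch2 cKO 2) to 3.21 (without control 2). Without TMM factors or with the stricter cell filter Mmp3 did not pass (adjusted p = 0.0546 and 0.0536).

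In T-zone reticular-like cells 10 of the 35 members tested differed between genotypes (background 6.41%), 5 upward (background 3.18% of 15732 genes) and 5 downward (background 3.22%). The members that rose were Adamts6, Mmp2, Mmp3, Adamts7 and Adamts17, and those that fell were Adamts13, Mmp17, Timp1, Adamts4 and Adamts8. The members' median log2 fold change was 0.31 and that of all genes tested 0.02. All 10 changed in the same direction in both batches, which a low p in a fit with a batch term favors. Of all members tested 80% did so, and of all genes tested 60.6%.

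Among the genes that rose, Mmp2 (chr8:92827291-92853420), the gelatinase that cuts denatured collagen and basement membrane collagen, stood at 52.9 and 38.1 CPM in the controls and 206 and 101 CPM in the Notch2 cKO libraries. Both Notch2 cKO libraries lay above both controls (log2 fold change 1.62, SE 0.23, adjusted p = 2.03e-04). Mmp3 stood at 27.8 and 30.4 CPM in the controls and 81.4 and 82.5 CPM in the Notch2 cKO libraries, again without overlap (log2 fold change 1.43, SE 0.20, adjusted p = 1.52e-04). Adamts6 stood at 3.39 and 11.3 CPM in the controls and 13 and 52.1 CPM in the Notch2 cKO libraries (log2 fold change 2.02, SE 0.22, adjusted p = 1.94e-05). Adamts7 (chr9:90163069-90208071), which cuts cartilage oligomeric matrix protein, was scarce, at 3.14 and 2.51 CPM in the controls and 7.34 and 5.5 CPM in the Notch2 cKO libraries, and its groups did not overlap (log2 fold change 1.10, SE 0.29, adjusted p = 0.0319). Adamts17 (chr7:66839735-67153171) stood at 18.1 and 137 CPM in the controls and 33.3 and 263 CPM in the Notch2 cKO libraries. Its groups overlapped, with both batch 2 libraries above both of batch 1, and within each batch the Notch2 cKO library was higher (log2 fold change 0.85, SE 0.21, adjusted p = 0.0223). Adamts5 stood at 293 and 274 CPM in the controls and 628 and 484 CPM in the Notch2 cKO libraries and did not pass the test (adjusted p = 0.0605).

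Among the genes that fell, Timp1 (chrX:20870166-20874735), a secreted inhibitor of most metalloproteinases, stood at 12.2 and 11.2 CPM in the controls and 4.18 and 6.19 CPM in the Notch2 cKO libraries (log2 fold change -1.23, SE 0.25, adjusted p = 0.00536). Adamts4 (chr1:171250421-171260637) stood at 21.2 and 25.4 CPM in the controls and 10.4 and 12.8 CPM in the Notch2 cKO libraries (log2 fold change -1.07, SE 0.21, adjusted p = 0.00393). Both controls lay above both Notch2 cKO libraries for each of these genes. Adamts13 (chr2:26973416-27009628), the von Willebrand factor-cutting protease, stood at 6.28 and 14.3 CPM in the controls and 1.87 and 6.17 CPM in the Notch2 cKO libraries (log2 fold change -1.49, SE 0.27, adjusted p = 0.0017), with control 1 and Notch2 cKO 2 nearly level. Mmp17 (chr5:129584169-129611099) and Adamts8 (chr9:30942562-30963838) were scarce, at 1.71 to 5.18 CPM and 7.57 to 17.2 CPM over the libraries, and their groups did not overlap (log2 fold changes -1.25 and -0.86, adjusted p = 0.0291 and 0.0266). The other inhibitors did not pass the test, with Timp2 at 555 and 511 CPM in the controls and 724 and 591 CPM in the Notch2 cKO libraries and Timp3 at 331 and 269 CPM in the controls and 489.6 and 314 CPM in the Notch2 cKO libraries (adjusted p = 0.833 and 0.679). In the fits without the batch term or with any 1 library left out 0 genes of all those tested passed, so all 10 calls were lost, while the fold changes with 1 library left out were 1.36 to 1.47 for Mmp3 and -1.172 to -1.002 for Adamts4. Those of Mmp2 ranged from 1.00 (without Notch2 cKO 1) to 2.16 (without Notch2 cKO 2), of Adamts6 from 0.80 (without Notch2 cKO 2) to 3.08 (without control 2), of Adamts13 from -2.46 (without Notch2 cKO 2) to -0.81 (without control 2) and of Adamts17 from -1.21 (without Notch2 cKO 2) to 2.83 (without control 2). Mmp17, Adamts8, Adamts7 and Timp1 were lost with DESeq2 (adjusted p = 0.334, 0.190, 0.347 and 0.0541).

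**Figure D3:**
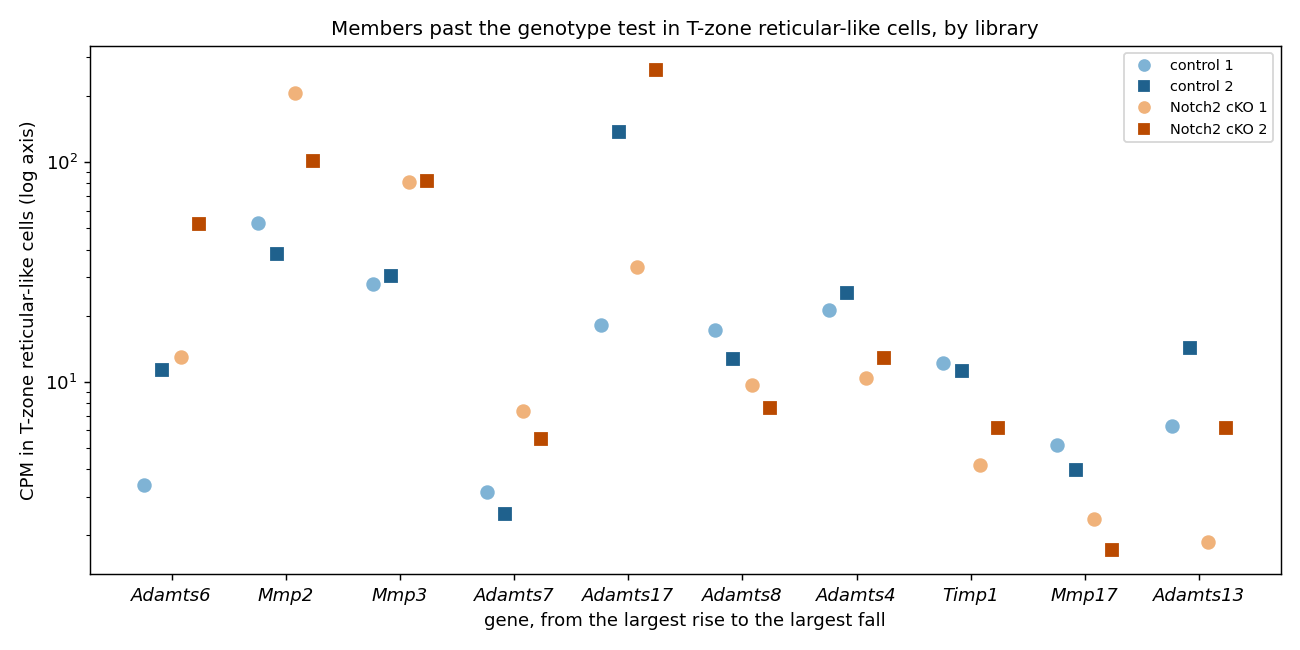
CPM (log axis) in T-zone reticular-like cells of the 10 members past the genotype test, 1 point per library, circles for batch 1 and squares for batch 2. For Mmp2, Mmp3 and Adamts7 both Notch2 cKO points lie above both controls, for Timp1, Adamts4, Adamts8 and Mmp17 both lie below, and for Adamts17 the batches lie further apart than the genotypes.

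The 250 bases before the start were searched for the core letters of the RBPJ site, TGGGAA, because RBPJ is the DNA-binding partner of Notch receptors. Promoter windows were at hand for 4 of the 10 members, of which Timp1 and Adamts13 (both lower) held 1 match each and Mmp3 and Adamts17 (both higher) held 0. Over all members 7 of 37 windows held a match, and 21.6% of all promoters did. The windows of Timp1 and Adamts13 are shown with the match in capitals.
Timp1, chrX:20869916-20870165, + strand: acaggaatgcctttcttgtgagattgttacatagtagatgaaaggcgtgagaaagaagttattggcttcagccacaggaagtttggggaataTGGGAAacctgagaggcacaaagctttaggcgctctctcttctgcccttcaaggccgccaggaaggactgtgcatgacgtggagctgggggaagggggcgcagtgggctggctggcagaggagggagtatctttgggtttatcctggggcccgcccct
Adamts13, chr2:26973166-26973415, + strand: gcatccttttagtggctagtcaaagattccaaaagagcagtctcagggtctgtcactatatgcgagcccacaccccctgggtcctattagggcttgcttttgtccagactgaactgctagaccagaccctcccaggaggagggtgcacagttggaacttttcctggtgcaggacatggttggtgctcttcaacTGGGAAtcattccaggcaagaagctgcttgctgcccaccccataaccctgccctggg
The match began 158 bases before the start in Timp1 and 57 bases before it in Adamts13. A match is a run of letters and not a measured binding site.

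At the level of single cells, the share of T-zone reticular-like cells with at least 1 UMI was compared after thinning every cell to 1000 UMIs, which left out no cell. For Mmp2 it was 5% and 3.45% in the controls and 17.8% and 9.11% in the Notch2 cKO libraries (not thinned 10.7%, 23.2%, 44.1% and 55.2%). For Mmp3 it was 2.22% and 2.4% against 5.9% and 5.94% (not thinned 4.57%, 11.4%, 12.9% and 22.8%). In pericyte-like cells of batch 2, where both genes are scarce, the thinned shares were 0.734% and 0.251% for Mmp2 and 0% and 0.501% for Mmp3 (the 0 of 681 cells allows up to 0.54% by the exact 95% binomial interval), with median depths of 3123 and 3840 UMIs against 8104 and 10442 in T-zone cells. The T-zone shares of both genes lay above these pericyte shares of batch 2, and in T-zone cells both Notch2 cKO libraries lay above both controls. Batch 1 had too few pericyte-like cells for such shares, and no background level was measured. For Adamts5 the thinned shares were 21.3% and 20.6% in the controls and 38.8% and 32% in the Notch2 cKO libraries, and unthinned they were 36.1%, 63%, 66.2% and 83.1%.

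Summed CPM of adventitial markers in all fibroblast-like cells was 173.4, 489.6, 237.7 and 173.2 CPM, and adventitial-like cells, where Mmp2 is highest, made up 1.17%, 3.89%, 1.26% and 0.737% of the cells kept in the order control 1 and Notch2 cKO 1 of batch 1, then control 2 and Notch2 cKO 2. Mmp2 gave log2 fold changes of 1.62 in T-zone reticular-like cells and 0.86 in all fibroblast-like cells. A cell past several gates was given to the class whose threshold it exceeded most, so T-zone reticular-like cells can also carry adventitial markers. Immediate early genes, which respond to tissue digestion, summed to 22603, 29112, 21057 and 18279 CPM in fibroblast-like cells in the same order, higher in Notch2 cKO than in control in batch 1 and lower in batch 2. T-zone reticular-like cells, gated by Ccl21a, made up 52.2% and 50.7% of the cells kept in control 1 and Notch2 cKO 1 and 28.4% and 41.8% in control 2 and Notch2 cKO 2. The part of these values in the results was not tested.

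The genotype difference of Mmp2 was larger in T-zone reticular-like cells than in the 2 sets of cells it was tested against. These were adventitial-like cells and the sum of all fibroblast-like cells outside the T-zone gate, which includes the adventitial-like cells. The other classes were not tested against T-zone cells singly. Against all fibroblast-like cells outside the T-zone gate, the difference of log2 fold changes was 1.14 (SE 0.11, adjusted p = 0.00373), the only member called of 38 (background 0.616% of 16719 genes). Against adventitial-like cells, 4 of 35 members were called (background 1.19% of 13961 genes), namely Mmp2 at 1.44 (SE 0.30, adjusted p = 2.15e-04), Mmp3 at 1.52 (SE 0.33, adjusted p = 8.49e-04), Adamts5 at 1.10 (SE 0.30, adjusted p = 0.0271) and Mmp16 at 2.66 (SE 0.44, adjusted p = 4.31e-07), the last resting on Notch2 cKO 2. In adventitial-like cells themselves Mmp2 gave log2 differences of 0.11 in batch 1 and 0.22 in batch 2 and did not pass the test, and Adamts5 stood at 1005 and 769.5 CPM in the controls and 983 and 599 CPM in the Notch2 cKO libraries. No member passed the genotype test in that class (0 of 23, with 1 upward and 0 downward at an unadjusted p under 0.05, edgeR; background 0.0366% higher and 0.171% lower of 8202 genes). With gates 2 times as strict, Mmp3 and Adamts5 no longer passed the test against adventitial-like cells (adjusted p = 0.0746 and 0.0550), and 7 members were called against cells outside the T-zone gate, where 3.39% of all genes were called (0.616% with the gates as used).

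**Figure D4:**
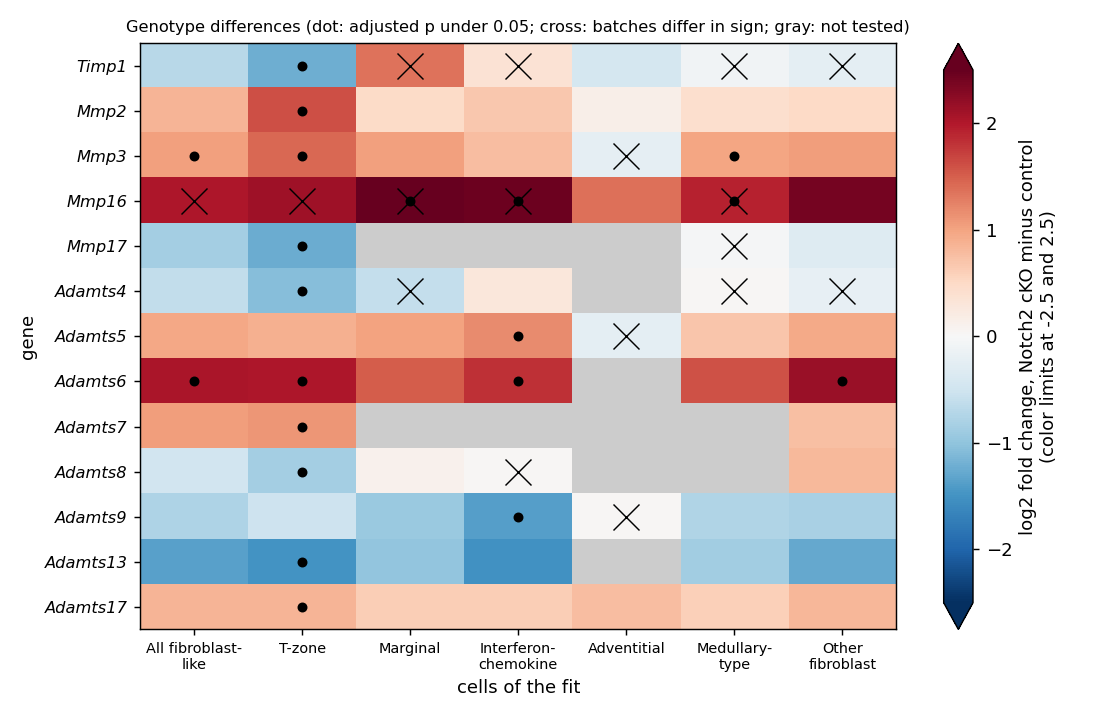
Log2 fold change, Notch2 cKO minus control (color, limits at -2.5 and 2.5), of the 13 members called in some genotype fit, across all fibroblast-like cells and the 6 classes; dots mark an adjusted p under 0.05, crosses mark batches of opposite sign and gray marks members not tested. Adamts6 and Mmp2 have the same sign wherever tested, and the T-zone column holds 10 dots.

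In the other classes fewer members passed. Interferon-chemokine reticular-like cells had 4 of 29 called (background 3.62%), with Adamts6, Mmp16 and Adamts5 higher (background 2.17%) and Adamts9 lower (background 1.45%). Adamts5 stood there at 107 and 87.4 CPM in the controls and 261 and 214 CPM in the Notch2 cKO libraries (log2 fold change 1.18, SE 0.28, adjusted p = 0.00555), both Notch2 cKO libraries above both controls. Adamts9, a protease that cuts versican, stood at 98.2 and 922 CPM in the controls and 53.2 and 313 CPM in the Notch2 cKO libraries, with the batches far apart and the Notch2 cKO library lower within each (log2 fold change -1.38, SE 0.33, adjusted p = 0.00678). In medullary-type cells Mmp3 was higher, at 125 and 74 CPM in the controls and 230.2 and 178 CPM in the Notch2 cKO libraries (log2 fold change 0.98, SE 0.23, adjusted p = 0.0433), and Mmp16 was called as well (2 of 31, background 0.820% in either direction and 0.511% higher). Other fibroblast-like cells had Adamts6 called alone (1 of 36, log2 fold change 2.16, SE 0.24, adjusted p = 0.0196, background 0.870% in either direction and 0.671% higher). Marginal reticular-like cells had Mmp16 called alone (1 of 31, background 1.14% in either direction, 0.540% higher and 0.597% lower). Class sizes differed between libraries, as with 258 interferon-chemokine cells in Notch2 cKO 2 against 970 in control 2.

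Mmp16, a membrane-type metalloproteinase that activates the Mmp2 pro-form (chr4:17852893-18119145), was high in 1 library only. In T-zone reticular-like cells it stood at 30.6 and 19.4 CPM in the controls and 26.9 and 419 CPM in the Notch2 cKO libraries, so that Notch2 cKO 2 lay far above the other 3 libraries, which were close together. The log2 differences were -0.17 in batch 1 and 4.34 in batch 2, and the test was not passed there (adjusted p = 0.114). The calls in marginal, interferon-chemokine and medullary-type cells had batch 1 differences of -0.23, -0.29 and -0.58 and batch 2 differences of 3.75, 3.51 and 2.60, so they rest on that library. Notch2 cKO 2 was also above control 2 outside the fibroblasts. In pericyte-like cells Mmp16 stood at 11.8 CPM in control 2 and 105 CPM in Notch2 cKO 2 (exact 95% Poisson intervals 7.87 to 17.1 and 89.7 to 122), and in smooth muscle-like cells at 14.6 and 123 CPM. After thinning, 28.1% of T-zone and 9.27% of pericyte-like cells of that library had a Mmp16 UMI (not thinned 80.1% and 24.6%). For Adamts5, which is also scarce in pericytes, the thinned shares in the same cells were 32% and 2.51%. What sets this library apart in Mmp16 was not tested.

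**Figure D5:**
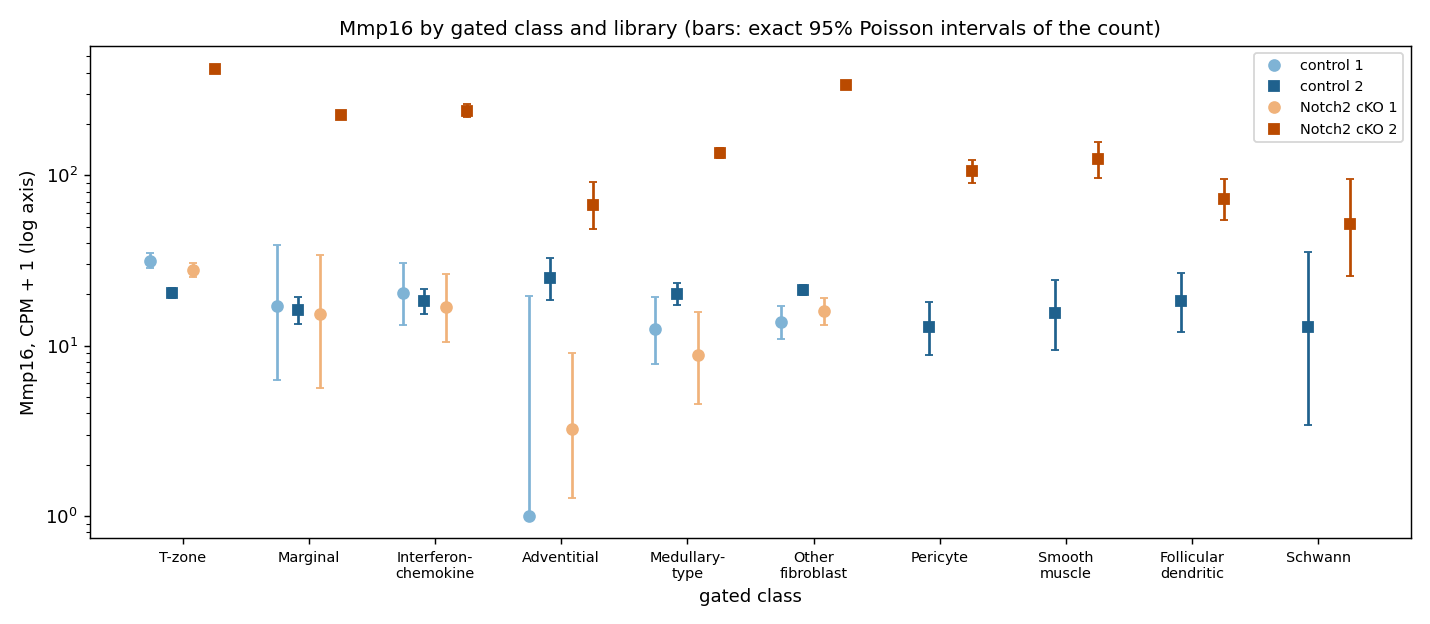
Mmp16 in each gated class and library as CPM + 1 on a log axis, with exact 95% Poisson intervals of the counts; classes with under 20 cells in a library are left out. Notch2 cKO 2 is the highest point in all 10 classes shown, while Notch2 cKO 1 lies below at least 1 control in each of the 6 fibroblast-like classes.

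Several members on long genes differed between batches by more than between genotypes. Adamts9 (171 kb) stood at 54.4 and 509.7 CPM in the controls and 36 and 282 CPM in the Notch2 cKO libraries, 9.37 times higher in control 2 than in control 1. Adamts17 (313 kb), Adamts3 (206 kb) and Adamts12 (284 kb) were 5.76 to 7.1 times higher. The other 4 of the 8 members on genes of at least 100 kb and at 20 CPM or more had lower ratios, with Adamtsl3 at 2.08, Adamts2 at 1.60, Adamts20 at 1.01 and Mmp16 at 0.834 times. Adamts6 (209 kb), under 20 CPM in the controls and so outside these 8, was also higher in control 2 than in control 1. Over all genes at 20 CPM or more, the median log2 ratio of control 2 to control 1 was 0.98 for 1158 genes of at least 100 kb and -0.30 for 1385 genes under 10 kb, and the ratios of Notch2 cKO 2 to Notch2 cKO 1 were 1.00 and -0.05. The batches also differ in Cell Ranger version (5.0.1 and 7.1.0 in the file headers). The part of these versions in the batch difference was not tested. Genotypes are compared within batches, but levels of these genes averaged over the libraries mix the 2 scales.

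Of 50 other genes of matrix turnover in 4 roles, 2 were higher and 0 lower in all fibroblast-like cells and 5 higher and 4 lower in T-zone reticular-like cells, with 49 and 47 tested (background 1.73% and 6.41% of all genes). The protease inhibitor A2m (alpha-2-macroglobulin), which traps proteases of many kinds including metalloproteinases, went from near absence to a clear level. In T-zone cells it stood at 0.679 and 0.279 CPM in the controls and 55.9 and 32.3 CPM in the Notch2 cKO libraries (log2 fold change 6.56, SE 0.30, adjusted p = 2.37e-09). The plasminogen activator Plat and the non-inhibitory serpin Serpinf1 also rose in T-zone cells (log2 fold changes 1.18 and 1.12, adjusted p = 0.0109 and 0.00770). Among the other matrix proteases Adam33 rose (log2 fold change 1.64, SE 0.23, adjusted p = 1.61e-04), and Fap, Ctss and Pappa fell (log2 fold changes -0.94, -0.87 and -1.22). Among substrates and partners the microfibril component Fbn2 rose, at 9 and 18.4 CPM in the controls and 53 and 51.7 CPM in the Notch2 cKO libraries (log2 fold change 1.92, SE 0.26, adjusted p = 1.18e-04), and fibronectin, Fn1, fell (log2 fold change -1.04, SE 0.29, adjusted p = 0.0435). In adventitial-like cells 0 of 36 tested were called in either direction (edgeR).

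For the 3 members with the highest mean CPM in fibroblast-like cells, the genes with the most similar log2 CPM over the 24 sums of library and class were sought among 14114 genes. Timp2 was followed most closely by Hdac7, Tgfbr2 and Tmem28 (Pearson r 0.980, 0.978 and 0.976). Adamts5 was followed by Cdkn1c, Plscr3 and Dst (0.905, 0.897 and 0.872), and Timp3 by Pdpn, Dbn1 and Igfbp5 (0.926, 0.917 and 0.913). Classes of a library share its depth, so these values describe the pattern only.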

How the data were processed

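The files hold whole UMI counts per gene and cell barcode, deposited by the authors as filtered matrices for 4 libraries (10x 3′ v3.1). Per the file headers, Cell Ranger 5.0.1 made the batch 1 files and 7.1.0 those of batch 2, while the submitters' processing notes name 5.0.1 and mm10. The sources used here do not say whether intronic reads were counted. Libraries held 21533049 to 119002408 UMIs. Groups follow the genotype labels, which for control 2 differ from its title.

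Cells were kept from 500 genes and 1000 UMIs upward, with no more than 10% of counts from mitochondrial genes. Classes were gated by marker UMIs per 10000, with thresholds set after the marker distributions were seen. Cells past the gates of 2 lineages (20 to 151 per library) were removed as doublets, without a doublet caller. At a T-zone threshold of 60 per 10000, 6.07% to 8.57% of fibroblast-like cells lay within 20% of it. Counts were summed per library and class (at least 20 cells) and tested with edgeR 4.0.16 (TMM, filterByExpr, quasi-likelihood test, R 4.3.3) with a batch term. Benjamini-Hochberg adjustment ran over all genes tested at a threshold of 0.05. Batch is the replicate number by the labels, and same-batch libraries deviated together (r 0.811 over 6520 genes). Class differences and genotype by class used the library as a block in place of the batch term, with several class sums per library. The scripts recovered known changes in counts simulated at a fixed spread. That spread was not estimated from these pools, so the check does not measure how often changes are missed or wrongly called in these data.

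Alternatives were DESeq2 1.42.0, no batch term, no TMM factors, no filter on low counts, stricter cells and gates, removal of the 5% of cells with most UMIs, unthinned shares and leaving out each library. Gene positions are from GENCODE vM21 (mm10) and promoters from RefSeq (GRCm38.p6). The members, lists and tests were chosen with earlier results of these data known. Members are named when they reach 20 CPM in a class or pass a genotype test, and 2 genes of these families and 1 gene of the list of other matrix-turnover genes are not reported here.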

Additional observations from a re-analysis of the deposited data

Results flagged for a closer look

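In 5 comparisons the Notch2 cKO effect differed between cell classes by a test of the difference itself (edgeR, genotype by class, adjusted over all genes tested). Against adventitial-like cells, the log2 fold change in T-zone reticular-like cells was greater by 1.44 for Mmp2, 1.52 for Mmp3, 1.10 for Adamts5 and 2.66 for Mmp16. Against all fibroblast-like cells outside the T-zone gate, it was greater by 1.14 for Mmp2. For Mmp2, Mmp3 and Adamts5 both batches gave a higher level in T-zone cells of the Notch2 cKO library, whereas the Mmp16 difference rests on Notch2 cKO 2 (log2 differences -0.17 in batch 1 and 4.34 in batch 2). Adventitial-like cells numbered 94 to 304 per library.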

How the results depend on the processing

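The genotype results rest on the batch term. Without the replicate block, 0 members passed in all fibroblast-like cells, in T-zone reticular-like cells in either direction and in the marginal, interferon-chemokine, medullary-type and other classes, and with any 1 library left out the counts in all fibroblast-like and T-zone cells ranged from 0 to 0. Over all genes these fits of all fibroblast-like and T-zone cells also called 0, except 11 higher and 1 lower in all fibroblast-like cells without Notch2 cKO 2, so the loss is not particular to the members. Those fits have no batch term, and the lone library left in a group is assumed to vary like the other group. Adamts17 in T-zone cells turned to -1.21 without Notch2 cKO 2 and was 2.83 without control 2, where the groups left are unbalanced over batches. In all fibroblast-like cells the members called were 5 higher and 2 lower with DESeq2, 7 and 1 without the filter, 1 higher without TMM factors or with stricter cells, and 1 lower with stricter gates or without the 5% of cells with most UMIs. In T-zone cells 2 were lower with DESeq2, 3 without TMM factors (where the members' median was 0.38), and 8 were higher without the filter. Stricter gates gave 2 calls in marginal (1.37% of all genes), 1 in medullary-type (0.412%) and 7 in other fibroblast-like cells (3.72%, against 0.870% before), and 7 in the comparison against cells outside the T-zone gate (3.39%, against 0.616%). Not thinned, the T-zone shares differed by 32.67 (Mmp2), 9.87 (Mmp3) and 25.07 (Adamts5) percentage points. Leaving out 1 library, class calls ranged over 22 to 26 (adventitial), 23 to 26 (T-zone), 18 to 24 (marginal), 9 to 13 (interferon-chemokine), 14 to 17 (medullary-type) and 10 to 17 (other). For single genes, apart from left-out libraries, 71 values kept their call and 33 lost it, none with another sign. Over all genes, calls in all fibroblast-like cells went from 198 higher and 109 lower to 270 and 212 with DESeq2, 139 and 56 without TMM factors and 478 and 365 without the filter, and in T-zone cells from 501 and 507 to 310 and 288, 467 and 318, and 732 and 721 (317 and 280 with stricter gates). Without TMM factors the share of higher calls in T-zone cells was 59.5%. The adventitial and marginal classes held as few as 94 and 107 cells in a library. The causes of these changes were not tested.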
